A study of Rattus norvegicus with 6 samples.

Results

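Glycolysis enzymes and glucose transporters were examined as a group of 10 rat genes, set by a list of Ensembl gene IDs, out of 32883 genes in the count table. They were the transporters Slc2a1 and Slc2a4, the glycolytic enzymes Hk2, Aldoa, Tpi1, Gapdh, Eno1 and Pkm, and the lactate dehydrogenase subunits Ldha and Ldhb. The list itself pairs each ID with its symbol. The gene table used here carries no Ensembl IDs and matched 0 of the IDs, so the pairing was not checked against an annotation. Of the 10 IDs, 9 were in the table and 8 had enough counts to be tested. The ID given for Aldoa (ENSRNOG00000023647) was absent, and that for Tpi1 (ENSRNOG00000015290) held too few counts.

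The libraries come from RNA immunoprecipitation (RIP), in which the RNA recovered with a tagged protein is set beside that of the starting lysate. Ventricular cardiomyocytes of rats at postnatal days 1 to 2 were plated after removal of non-myocytes and received an adenovirus carrying FLAG-tagged MBNL1 (multiplicity of infection 100, 48 h). The 3 RIP libraries hold RNA recovered with an anti-FLAG antibody, and the 3 Input libraries hold RNA of the cleared lysate, of which 10% was kept. Both groups therefore come from transduced cells grown in serum, with insulin-transferrin-selenium in the medium after the first day, and they differ by the pulldown. The tagged protein was supplied by the virus, whose promoter the labels do not give. Neither an IgG pulldown nor cells without the virus were analysed here, so no value below separates RNA held by MBNL1 from RNA that binds the antibody or beads. The labels do not say how many animals were pooled, or whether the 3 libraries of a group are separate cultures, so p-values reflect nothing beyond the spread among these libraries, which may be technical. Neither the cell type nor the MBNL1 transcript could be checked in the counts, because the IDs of their genes could not be matched to symbols.

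Glycolysis splits glucose into pyruvate in the cytosol. Transporters bring glucose into the cell, hexokinase traps it as a phosphate, the middle enzymes divide and oxidise it, and pyruvate kinase makes ATP in the last step. Lactate dehydrogenase then interconverts pyruvate and lactate. Heart muscle cells around birth draw much of their ATP from this pathway and turn to fatty acid oxidation as they mature. MBNL1, or muscleblind-like 1, binds RNA and is known for its part in alternative splicing and in the stability and location of messenger RNA.

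The libraries held 17265349 to 19325661 counts. The 8 tested members had 855 to 93294 counts per library, so counting error was at most 3.42% of a value. Levels are given below as CPM, counts scaled to a common total per library after correction by TMM, a factor that corrects for unequal composition. One gene ID, ENSRNOG00000014076, took 19.58% to 28.09% of the counts in RIP and 7.79% to 8.89% in Input. It could not be matched to a symbol, so what it encodes is not known here. TMM factors were 0.89 to 1 in RIP and 1.02 to 1.1 in Input. The TMM factor was lowest in RIP 1 (0.89), where this gene ID took the most. Among the RIP libraries the factor was highest in RIP 3, where this ID took the least. The part of this ID in the spread between RIP libraries was not tested. Differences are log2 fold changes of RIP over Input from edgeR's quasi-likelihood test, with p-values adjusted by the Benjamini-Hochberg method over all 13823 tested genes and a threshold of 0.05. The test's estimate of a gene's spread among libraries draws on all tested genes as well as on that gene. A gene that passed and was higher in RIP is called enriched, and one that passed and was lower is called depleted.

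The members did not move together. Of the 8 tested, 2 were enriched (Pkm and Ldha), 4 were depleted (Gapdh, Slc2a1, Ldhb and Hk2), and Slc2a4 and Eno1 did not pass. Over all tested genes, 33.0% were enriched and 34.9% depleted, so passing the threshold was common in this comparison and the counts of members lie near that background. The median log2 fold change of the 8 was -0.18, beside -0.03 over all tested genes. Without RIP 3 the median of the 8 was -0.11, beside -0.03 over all tested genes. Without RIP 1 it was -0.25, beside -0.04. Their range ran from -1.52 for Gapdh to 0.85 for Pkm, which both act in the later part of the pathway. In 5 of the 8 (Slc2a1, Gapdh, Pkm, Ldha and Ldhb) the 3 RIP values did not overlap the 3 Input values, where 71.1% of all tested genes showed no overlap.

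**Figure D1:**
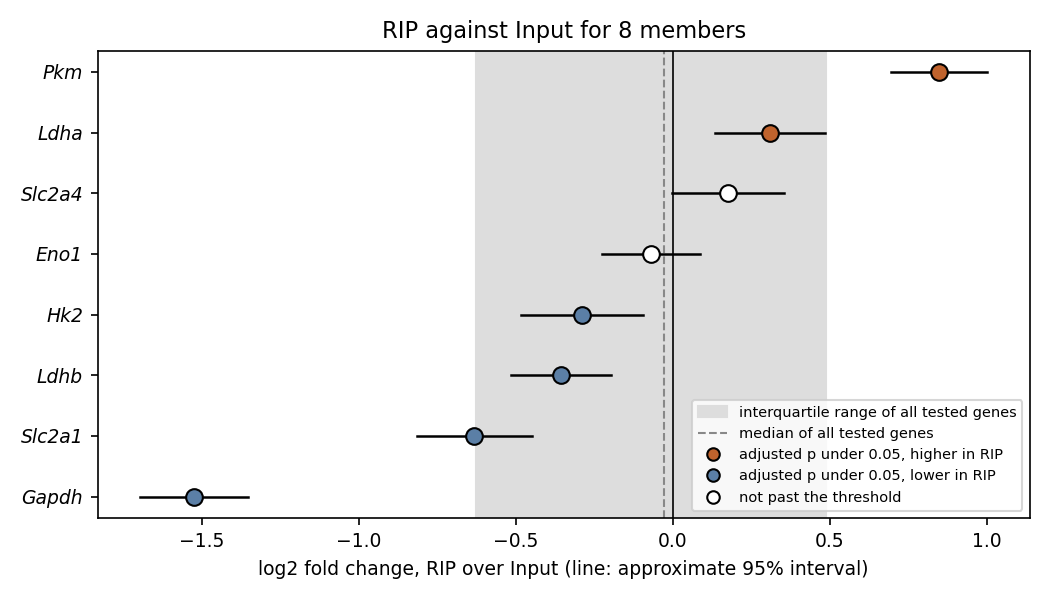
Log2 fold change of RIP over Input for the 8 tested members, ordered by size, with lines for the approximate 95% interval; the grey band is the interquartile range of all 13823 tested genes (-0.63 to 0.49). Gapdh (-1.52) and Pkm (0.85) lie outside the band, Slc2a1 (-0.631) lies just outside its lower edge (-0.627), and the other 5 lie within it.

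Of the glucose transporters, Slc2a1 was depleted and Slc2a4 did not pass. Slc2a1 (ENSRNOG00000007284) encodes GLUT1, which carries glucose without need of insulin and is the main transporter of the fetal heart. It stood at 349, 322 and 257 CPM in Input 1, 2 and 3 and at 212, 203 and 185 CPM in RIP 1, 2 and 3. Every RIP value lay below every Input value, and Input 3 was well below the other Input libraries. The means were 309 ± 47.0 CPM in Input and 199.7 ± 13.8 CPM in RIP (n = 3 per group, SD). RIP differed from Input by a log2 fold change of -0.63 (edgeR adjusted p = 3.66e-06, SE 0.09), a 1.55-fold depletion. Without Input 3 it was -0.75.

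Slc2a4 (ENSRNOG00000017226) encodes GLUT4, the insulin-responsive transporter of heart, skeletal muscle and fat. Its values were 55.0, 54.7 and 47.1 CPM in Input 1, 2 and 3 and 65.5, 60.6 and 51.3 CPM in RIP 1, 2 and 3. RIP 3 fell within the range of Input, so the groups overlapped, although each RIP value lay above the Input value of the same number. The means were 52.3 ± 4.48 CPM in Input and 59.1 ± 7.22 CPM in RIP (n = 3 per group, SD). The log2 fold change was 0.18 (edgeR adjusted p = 0.093, SE 0.09), with an interval of -0.003 to 0.35 that leaves room for no difference and for a small enrichment. This result turned on single libraries: without RIP 3 it was 0.28 (edgeR adjusted p = 0.00658), without RIP 1 it was 0.09 (edgeR adjusted p = 0.385) and without Input 3 it was 0.11 (edgeR adjusted p = 0.367). The log2 fold change of Slc2a4 also moved with scaling. With library sizes in place of TMM it was 0.02 (edgeR adjusted p = 0.879). With DESeq2-style size factors, the highest of the other scalings, it was 0.20 (edgeR adjusted p = 0.056). With replicate number as a block in the fit, it was 0.17 and passed (edgeR adjusted p = 0.0446). Whether libraries of the same number are pairs is not known.

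The transporters were also compared with each other inside each library, where scaling has no part. There were 6.34, 5.87 and 5.46 counts of Slc2a1 for each count of Slc2a4 in Input 1, 2 and 3, and 3.23, 3.34 and 3.60 in RIP 1, 2 and 3. The ratio thus fell in every RIP library below every Input library. Of all pairs of genes with at least 500 counts in every library, 79.6% also showed no overlap between the groups. The log2 ratio went from 2.56 ± 0.11 in Input to 1.76 ± 0.08 in RIP (n = 3 per group, SD), a change of -0.80 or 1.74-fold (two-sided exact permutation test, p = 0.1, below which 3 against 3 libraries cannot go). Transcript length cancels in such a change only where a gene keeps its mix of transcript forms between Input and RIP, which was not tested. The ratio itself does not compare amounts of the 2 transcripts.

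Of the early enzymes of glycolysis, only Hk2 could be tested. Hk2 (ENSRNOG00000006116) encodes hexokinase 2, the insulin-regulated form that phosphorylates glucose and can sit on the outer mitochondrial membrane. It stood at 72.7, 67.9 and 54.2 CPM in Input 1, 2 and 3 and at 59.2, 53.4 and 47.1 CPM in RIP 1, 2 and 3. The groups overlapped, because Input 3 lay below RIP 1, although each RIP value lay below the Input value of the same number. The means were 64.9 ± 9.61 CPM in Input and 53.2 ± 6.02 CPM in RIP (n = 3 per group, SD). Hk2 was depleted with a log2 fold change of -0.29 (edgeR adjusted p = 0.0142, SE 0.10). The call was lost without RIP 3 (-0.20, edgeR adjusted p = 0.0765), without Input 1 (-0.21, edgeR adjusted p = 0.0904) and without Input 2 (-0.25, edgeR adjusted p = 0.0628). Leaving out RIP 2 and Input 2 together also lost the call (-0.25, edgeR adjusted p = 0.127). With replicate number as a block in the fit, Hk2 stayed depleted (-0.28, edgeR adjusted p = 0.00199). Both Hk2 and Slc2a1 varied more between Input libraries than the other tested members did, with a coefficient of variation of 14.8% and 15.2% against 2.19% to 8.57%. Input 3 held the lowest Input value of these 2 and of Slc2a4, Gapdh, Eno1, Pkm and Ldha, but not of Ldhb.

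The ID listed for Tpi1, which encodes the triosephosphate isomerase that interconverts the products of aldolase, had 11, 10 and 9 counts in Input 1, 2 and 3 and 0, 2 and 1 counts in RIP 1, 2 and 3. All RIP counts lay below all Input counts. Summed over libraries, 3 counts of 53116562 in RIP stood against 30 of 57700219 in Input, so that RIP held 10.9% of the Input share (exact binomial 95% interval 2.12% to 34.9%, counting error only). The next lowest member had 855 counts in its lowest library. How reads that match several places in the genome were treated is not given in the sources used here, and whether this ID holds the counts of the expressed gene was not tested. Aldoa, which encodes the muscle aldolase that splits the sugar, has no value.

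Gapdh showed the largest difference of the 8 tested members. Gapdh (ENSRNOG00000018630) encodes glyceraldehyde-3-phosphate dehydrogenase, the oxidising step of the pathway, and is widely used as a reference gene. It stood at 4438, 4383 and 3934 CPM in Input 1, 2 and 3 and at 1557, 1488 and 1388 CPM in RIP 1, 2 and 3. The lowest Input library was far above the highest RIP library. Its log2 fold change was -1.52 (edgeR adjusted p = 1.27e-12, SE 0.09), a 2.88-fold depletion, from 4252 ± 277 to 1478 ± 85.4 CPM (n = 3 per group, SD). It was the only member at least 2-fold lower in RIP, a size reached by 15.1% of all tested genes, and no member was 2-fold higher, where 8.94% of all tested genes were. Only 6.85% of the tested genes had a lower fold change.

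Such a depletion was not rare among abundant transcripts. By mean CPM in Input, not per length, Gapdh ranked 18 among all tested genes, and it ranked 44 in RIP. Among the 100 genes with the highest Input CPM, 39 were enriched and 44 depleted, and Gapdh had the 19th lowest fold change. Eno1, Ldha and Pkm were also in that set, and their fold changes ranked 53, 63 and 82 from the lowest.

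**Figure D2:**
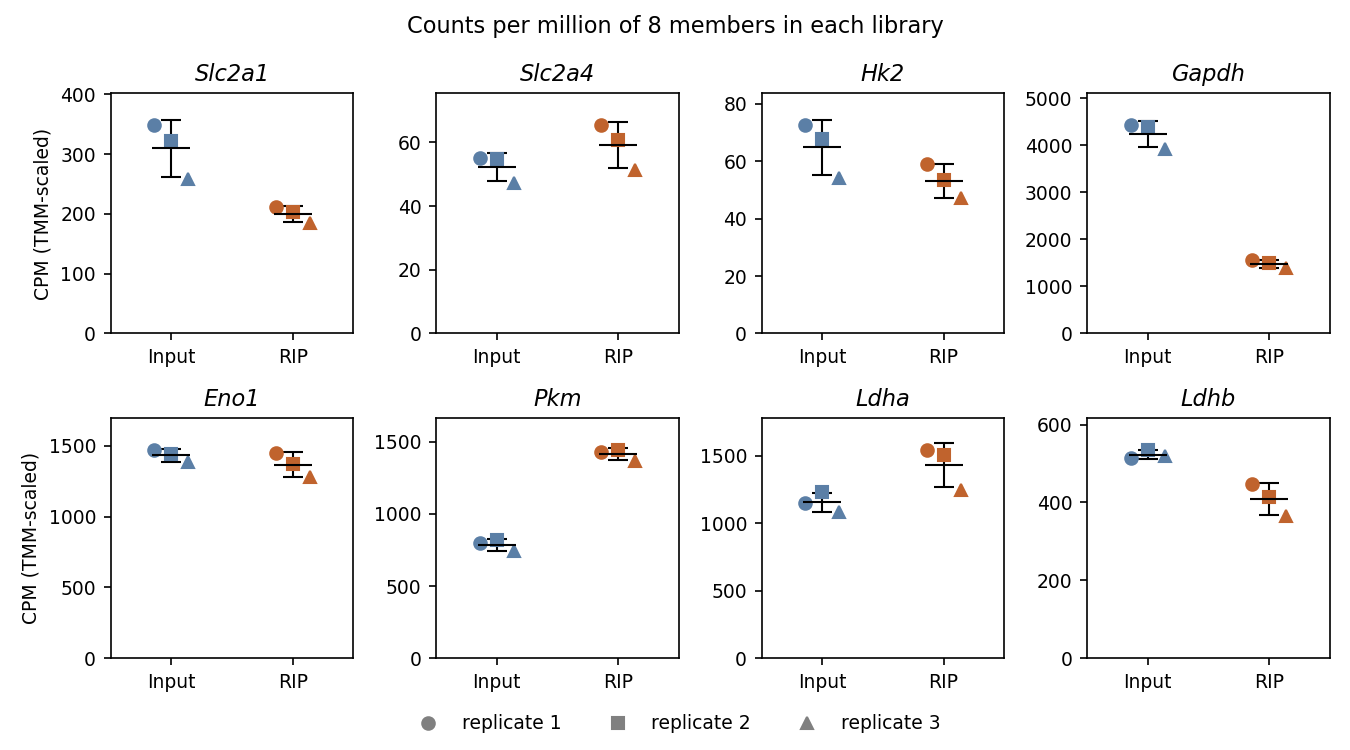
CPM of the TMM-scaled library for each tested member in the 3 Input (blue) and 3 RIP (orange) libraries, with the mean and SD as black bars; each panel starts at 0 and has its own scale. Gapdh drops from 3934 to 4438 CPM in Input to 1388 to 1557 CPM in RIP, Pkm rises from 740.2 to 817 CPM to 1369 to 1446 CPM, and Eno1, Hk2 and Slc2a4 overlap between the groups.

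Of the last enzymes of the pathway, Eno1 did not pass and Pkm was enriched. Eno1 (ENSRNOG00000017895) encodes alpha-enolase, the enzyme before pyruvate kinase. It stood at 1473, 1444 and 1382 CPM in Input 1, 2 and 3 and at 1452, 1369 and 1277 CPM in RIP 1, 2 and 3. RIP 1 fell within the range of Input, and RIP 2 and RIP 3 lay below it. The means were 1433 ± 46.6 CPM in Input and 1366 ± 87.4 CPM in RIP (n = 3 per group, SD). The log2 fold change was -0.07 (edgeR adjusted p = 0.459, SE 0.08), with an interval of -0.23 to 0.09. It was -0.02 without RIP 3 (edgeR adjusted p = 0.866) and -0.12 without RIP 1 (edgeR adjusted p = 0.194). With library sizes in place of TMM it was -0.22 and passed (edgeR adjusted p = 0.041), a scaling under which the median over all genes moved from -0.03 to -0.18.

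Pkm (ENSRNOG00000011329) encodes the pyruvate kinase of muscle and of most growing cells, whose forms arise by alternative splicing and are pooled in a gene count. It stood at 799, 817 and 740.2 CPM in Input 1, 2 and 3 and at 1429, 1446 and 1369 CPM in RIP 1, 2 and 3. All RIP values were well above all Input values, and the RIP libraries lay close together. The means were 785.5 ± 40.2 CPM in Input and 1415 ± 40.6 CPM in RIP (n = 3 per group, SD). Pkm had a log2 fold change of 0.85 (edgeR adjusted p = 2.89e-09, SE 0.08), a 1.80-fold enrichment, and 87.8% of the tested genes had a lower one.

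The lactate dehydrogenase subunits parted. Ldha (ENSRNOG00000013009) encodes the subunit that prevails in skeletal muscle and in cells that make lactate. It stood at 1148, 1230 and 1085 CPM in Input 1, 2 and 3 and at 1546, 1506 and 1244 CPM in RIP 1, 2 and 3. The groups did not overlap, but RIP 3 lay only just above Input 2. The means were 1155 ± 72.3 CPM in Input and 1432 ± 164 CPM in RIP (n = 3 per group, SD). Ldha was enriched with a log2 fold change of 0.31 (edgeR adjusted p = 0.00411, SE 0.09). The call was lost with library sizes in place of TMM (0.15, edgeR adjusted p = 0.194).

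Ldhb (ENSRNOG00000013000) encodes the subunit that prevails in the adult heart, which uses lactate as fuel. It stood at 514, 536 and 518 CPM in Input 1, 2 and 3 and at 447, 414 and 365 CPM in RIP 1, 2 and 3. All RIP values lay below all Input values. Ldhb was depleted with a log2 fold change of -0.36 (edgeR adjusted p = 0.000541, SE 0.08). The means were 523 ± 11.5 CPM in Input and 408 ± 41.5 CPM in RIP (n = 3 per group, SD).

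Inside each library, counts of Ldha per count of Ldhb were 2.23, 2.29 and 2.09 in Input 1, 2 and 3 and 3.46, 3.64 and 3.41 in RIP 1, 2 and 3. The ratio was higher in every RIP library than in every Input library, with a gap wider than the spread within either group. Lack of overlap was common: it held for 79.6% of pairs of genes with at least 500 counts in every library. The log2 ratio went from 1.14 ± 0.07 in Input to 1.81 ± 0.05 in RIP (n = 3 per group, SD), a change of 0.67 or 1.59-fold (two-sided exact permutation test, p = 0.1, the smallest possible). This difference between the subunits does not depend on scaling, unlike the call for Ldha by itself.

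**Figure D3:**
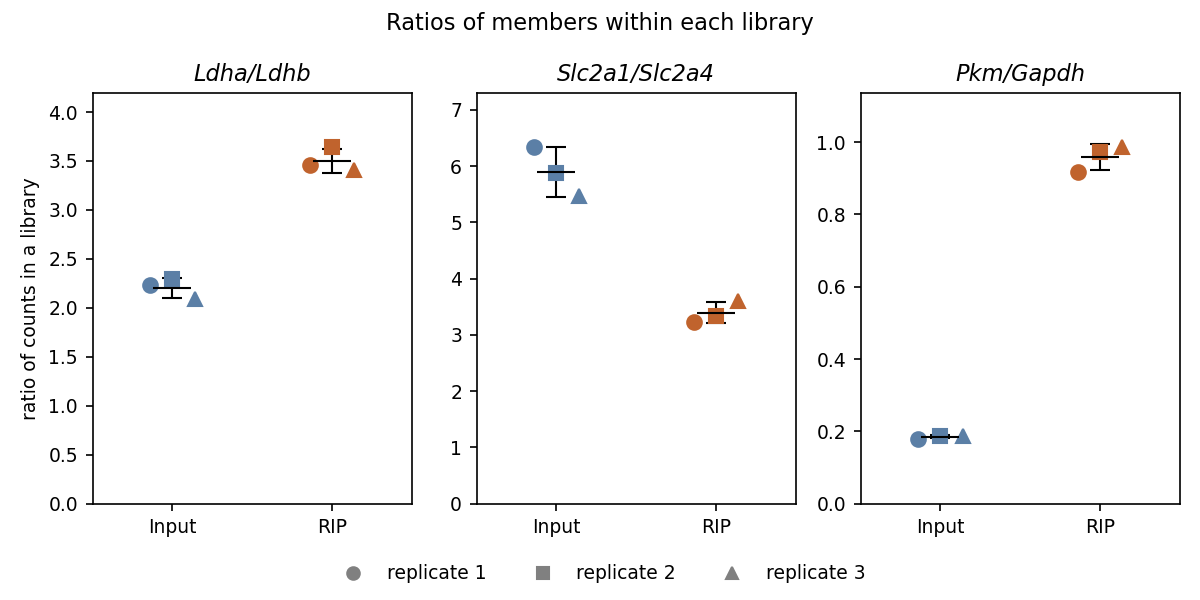
Ratio of the counts of 2 members within each library, for Ldha over Ldhb, Slc2a1 over Slc2a4 and Pkm over Gapdh, with the mean and SD of the 3 Input (blue) and 3 RIP (orange) libraries as black bars. The groups do not overlap in any panel: Ldha over Ldhb is 2.09 to 2.29 in Input and 3.41 to 3.64 in RIP, and Slc2a1 over Slc2a4 is 5.46 to 6.34 in Input and 3.23 to 3.60 in RIP. Of pairs of genes with at least 500 counts in every library, 79.6% show no overlap.

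The summed level of the group turned on Gapdh. The counts of the 9 members in the table summed to 8851, 8854 and 8019 CPM in Input 1, 2 and 3 and to 6768, 6540 and 5926 CPM in RIP 1, 2 and 3, a 1.34-fold lower level in RIP with no overlap (two-sided exact permutation test, p = 0.1, the smallest possible). Without Gapdh, a choice made after its values were seen, the sum was 4323 ± 208 CPM in Input and 4934 ± 351 CPM in RIP (n = 3 per group, SD). The direction thus turned, with a 1.14-fold higher level in RIP (two-sided exact permutation test, p = 0.1, the smallest possible). As CPM of the library total in place of the TMM-scaled library, the sum without Gapdh was 4558 ± 337 in Input and 4670 ± 162 in RIP (n = 3 per group, SD), and the groups overlapped (exact permutation test, two-sided p = 0.7).

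How the members' own counts were divided does not depend on scaling either. Gapdh took 49.6% ± 0.55 of them in Input and 23.1% ± 0.33 in RIP (n = 3 per group, SD). The share of Pkm went from 9.16% ± 0.11 to 22.1% ± 0.99, that of Ldha from 13.5% ± 0.46 to 22.3% ± 1.12, and that of Eno1 from 16.7% ± 0.47 to 21.3% ± 0.33 (n = 3 per group, SD). In none of these 4 did RIP and Input libraries overlap, and the same held for the shares of Slc2a1, Slc2a4 and Tpi1. No background was computed for such shares. The shares of Ldhb (6.11% ± 0.33 and 6.36% ± 0.23) and Hk2 (0.755% ± 0.074 and 0.828% ± 0.041; n = 3 per group, SD) overlapped between the groups. These are shares of reads and not of molecules, since transcript lengths were not used. A share of one gene falls when another rises, and rises when another falls. As the share of Gapdh fell, that of Eno1 rose, although its own log2 fold change was -0.07 and did not pass. Likewise Ldhb and Hk2 were depleted by the fit, but their shares overlapped between the groups.

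**Figure D4:**
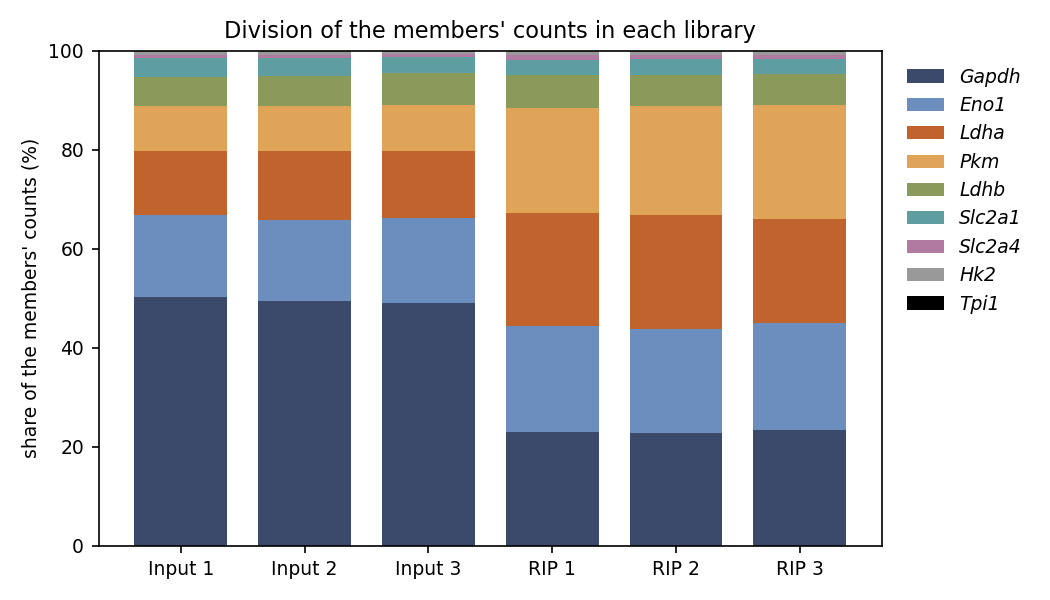
Share of the counts of the 9 members in the table that fell to each member, in percent, for the 3 Input and 3 RIP libraries. Gapdh takes 49.6% on average in Input and 23.1% in RIP, while the shares of Ldha and Pkm are wider in each RIP library than in any Input library; Tpi1 is too small to be seen.

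The other tested members were also set against Gapdh in the same library, a choice made after its values were seen. Because Gapdh had the lowest fold change of the 8, each of these 7 ratios had to be higher in RIP, and they are given as a description of what Gapdh as a denominator does. The change in the log2 ratio to Gapdh was 2.37 for Pkm, 1.83 for Ldha, 1.70 for Slc2a4, 1.45 for Eno1, 1.24 for Hk2, 1.16 for Ldhb and 0.90 for Slc2a1. For Pkm the counts per count of Gapdh were 0.180, 0.186 and 0.188 in Input 1, 2 and 3 and 0.918, 0.972 and 0.987 in RIP 1, 2 and 3, a 5.18-fold change. Hk2, Ldhb and Slc2a1, which were depleted with TMM scaling, were thus 2.37-fold, 2.24-fold and 1.87-fold higher in RIP relative to Gapdh. These 7 ratios share 1 denominator and are no separate observations. With them, the pair of transporters, the pair of lactate dehydrogenase subunits and Pkm over Eno1, 10 ratios were computed, and the smallest p that 3 against 3 libraries allow stays at 0.1 after Benjamini-Hochberg adjustment over the 10 (exact permutation test). Because 7 of the 10 had to be higher in RIP, this adjustment adds no support for the rest.

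The order of the members by fold change was, from lowest to highest, Gapdh, Slc2a1, Ldhb, Hk2, Eno1, Slc2a4, Ldha and Pkm. Of the 28 ratios between pairs of these members, the groups did not overlap in 25, where 79.6% of pairs of genes with at least 500 counts in every library showed no overlap. The 3 pairs that overlapped were Slc2a1 with Ldhb, Hk2 with Ldhb and Hk2 with Eno1. Of the neighbours in the order, Slc2a1 with Ldhb, Ldhb with Hk2, and Hk2 with Eno1 were therefore not separated by their libraries. After adjustment over the 28 pairs no exact permutation p was below 0.112. The plot of fold changes under the alternatives shows the same 8 members with each setting tried, and no member crossed 0.

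**Figure D5:**
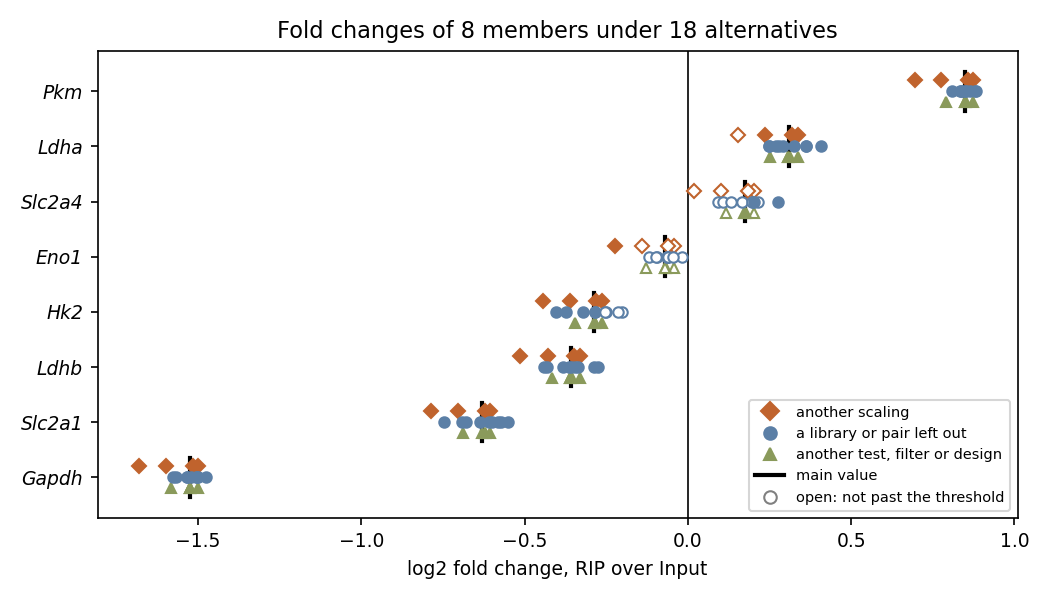
Log2 fold change of RIP over Input for each tested member under 18 alternatives of scaling (diamonds), libraries left out (circles) and test, filter or design (triangles), with the main value as a black bar; open symbols did not pass the threshold. Gapdh spans -1.68 to -1.48, Pkm 0.70 to 0.88, Slc2a1 -0.79 to -0.55 and Ldhb -0.51 to -0.28, all past the threshold, while Ldha, Hk2, Slc2a4 and Eno1 have open symbols.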

How the data were processed

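Per the submitters' processing notes, the authors used STAR, featureCounts and DESeq2. No source used here states their versions, the genome build, the annotation, the strand setting or how multiply mapping reads were counted. The deposited table holds raw read counts per Ensembl gene ID in 6 libraries, without normalization. The filter on low counts (filterByExpr, minimum count 10 and minimum total 15) left 13823 genes. RIP and Input were compared over the 6 libraries by the quasi-likelihood test of edgeR 4.0.16 in R 4.3.3, after TMM scaling and without covariates. The standard error is the log2 coefficient over the root of the F statistic, and intervals are its normal 95% range. Single values were compared by two-sided exact permutation tests over libraries. All 10 listed genes were to be named whatever their values. Other genes of the pathway and cell type markers, listed by symbol, were not analysed here because IDs could not be matched to symbols. Members, lists and tests were chosen with earlier results of these data known. Reads shared with near-identical copies, a concern for Gapdh, Eno1, Ldha, Pkm and Tpi1, could not be assessed. Alternatives were DESeq2 1.42.0, limma-voom (limma 3.58.1), other scalings and filters, libraries left out, and a replicate block. In simulated data for RIP against Input (13823 genes), 67 genes were changed 1.5-fold, 67 genes 2-fold and 66 genes 4-fold. Recovery was 68.7%, 89.6% and 100% of these, and 6.52% of the calls were false. In the real comparison 67.9% of tested genes passed, so the cut-off after adjustment was stricter in the simulation. These rates therefore need not hold for the real data.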

Additional observations from a re-analysis of the deposited data

How the results depend on the processing

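All 8 tested members kept the direction of their fold change under 18 alternative fits. Gapdh (-1.68 to -1.48), Slc2a1 (-0.79 to -0.55), Ldhb (-0.51 to -0.28) and Pkm (0.70 to 0.88) stayed past the threshold in all 18, Ldha in 17 and Hk2 in 14. Leaving out a library or a pair gave 2 to 3 enriched and 3 to 4 depleted members and a median of -0.25 to -0.11. With library sizes only, 1 member was enriched and the median moved to -0.33, as the median over all genes moved to -0.18. The summed level changed by -0.42 on the log2 scale, by -0.57 as CPM of the library total, by -0.68 without the 20 most abundant genes in the total, and by 0.19 when Gapdh was left out of the sum, which was chosen after seeing the data. With the replicate block, Slc2a4 passed (0.17, edgeR adjusted p = 0.0446), and no other member's call changed. Deviations of same-numbered libraries correlated at 0.053, 0.112 and 0.057, and each library had its best correlation at its own number. Such low values over all tested genes cannot decide whether the numbers mark pairs. The main fit did not use pairs, and the replicate block gives the paired version. Without the filter on low counts, the ID listed for Tpi1 had a log2 fold change of -2.92 (edgeR adjusted p = 0.00283), which rests on 33 counts.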
